A study of Mus musculus with 12 samples.

Results

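Tgfbr1, Tgfbr2, Tgfbr3, Eng, Smad2, Smad3, Smad4, Smad7, Skil and Pmepa1 encode the receptors, coreceptors, SMAD proteins and feedback inhibitors that carry and restrain the TGF-β signal. They are 10 of the 35523 genes in the files and were listed by name for their place in the pathway. Earlier results of these data were known when they were chosen. All 10 passed the count minimum that left 18028 genes for testing. The RNA came from primary cardiac fibroblasts of adult female and male wild type C57BL/6J mice, a mixed culture grown out of digested hearts. Cells were transfected with a scramble siRNA or an siRNA against histone H1.0, the linker histone encoded by H1f0, and every group was held in low serum for 24 h before vehicle or TGF-β at 10 ng ml−1. The 4 groups, each with 3 libraries, were Veh_siScramble, TGFb_siScramble, Veh_H1.0_siRNA and TGFb_H1.0_siRNA. How long TGF-β was applied before RNA collection is not given in the sources used here.

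TGF-β binds the type II receptor TGFBR2, which then activates the type I receptor TGFBR1, while the coreceptors betaglycan (Tgfbr3) and endoglin (Eng) bind ligand without kinase activity of their own. TGFBR1 phosphorylates SMAD2 and SMAD3, and these join SMAD4 and enter the nucleus to regulate transcription. SMAD7, SnoN (Skil) and PMEPA1 are made in response to the signal and limit it at the receptor, at the nuclear SMAD complex and at SMAD2 and SMAD3 recruitment, respectively. In cardiac fibroblasts this pathway is known for driving the myofibroblast state and matrix production.

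Library totals ran from 19.9 to 36.3 M estimated counts, and the 4 deepest libraries, at 35.5 to 36.3 M, were Veh_H1.0_siRNA replicate 3 and all 3 of TGFb_H1.0_siRNA. H1f0 checked the knockdown: its normalized count lay between 2515 and 3033 in the 6 scramble libraries and between 510.3 and 1075 in the 6 H1.0 siRNA libraries. All 10 fibroblast markers were detected, with a summed level between 14100 and 20900 TPM (a level per transcript length, scaled to the same total in each library). With TGF-β 1 of them was called higher and 3 lower in scramble cells, and 2 higher and 5 lower in H1.0 siRNA cells. With H1.0 siRNA 2 were higher and 1 lower in vehicle, and 1 higher and 3 lower in TGF-β. In vehicle Thy1 was lower (log2 fold change −2.18, adjusted p = 0.0024 by edgeR) and Dcn higher (0.50, adjusted p = 0.0014). The shares of all genes called in these comparisons are given below. Markers of other cell types were present too, none of them at 0 in a whole group. The 8 macrophage markers summed to 1410 to 1560 TPM in scramble cells with vehicle, 1040 to 1090 TPM with TGF-β, 1120 to 1220 TPM with H1.0 siRNA and vehicle, and 610 to 917 TPM with H1.0 siRNA and TGF-β. With TGF-β edgeR called 3 of the 8 lower in scramble cells, at a median log2 fold change of −0.36, and 4 in H1.0 siRNA cells, at −0.53. It called 0 higher in either arm, and over all genes 7.94% and 6.6% were lower. With H1.0 siRNA in vehicle the macrophage markers went both ways, with a median of 0.10. Adgre1 was called higher (0.90, adjusted p = 0.0026) and C1qb lower (−0.72, adjusted p = 0.007). Lyz2 was at 980 TPM in scramble and 708 TPM in H1.0 siRNA cells there. With H1.0 siRNA in TGF-β 0 of the 8 were called higher and 2 lower, at a median of −0.04. Over all genes 11.3% were lower. H1.0 siRNA with TGF-β against scramble with vehicle gave 0 higher and 5 lower, at a median of −0.72, beside 15.4% of all genes lower. The 6 cardiomyocyte markers summed to 130 to 192 TPM in scramble libraries and 10.9 to 21.3 TPM in H1.0 siRNA libraries, nearly all of it Tnnt2. Tnnt2 had mean levels of 182 and 140 TPM in scramble and 17 and 10.5 TPM in H1.0 siRNA cells, the other 5 together had 1.52 to 4.28 TPM, and 4 of the 6 were under 1 TPM in every group mean.

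The 6 mural cell markers summed to 24.2 to 58 TPM in scramble cells with vehicle and 30 to 71.4 TPM with TGF-β, against 10.8 to 21.4 and 10.3 to 24.9 TPM with H1.0 siRNA. Under 1 TPM in the group mean were 3 of the 6 in each H1.0 siRNA group, 1 in scramble with vehicle and 2 in scramble with TGF-β. For H1.0 siRNA edgeR called 0 of the 6 in either medium, with medians of −1.48 in vehicle and −0.87 in TGF-β. At an unadjusted p under 0.05, 5 were lower in vehicle and 2 in TGF-β, where 44.4% and 43.8% of all genes were under it in either direction. DESeq2 called 2 lower in each medium, beside 14.8% and 14.7% of all genes. The replicate block called 5 and 4 lower, beside 16.2% and 16%. The part of these cells in the values below was not tested, and in bulk RNA fewer cells of a type and less RNA per cell cannot be told apart.

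Stimulation with TGF-β raised Pmepa1, Skil and Tgfbr1 and lowered Tgfbr3 and Smad3, in scramble cells and again in H1.0 siRNA cells. H1.0 siRNA on its own, in vehicle, lowered Tgfbr1, Tgfbr2, Eng and Pmepa1 and raised Smad3. With TGF-β present, Pmepa1 was the member called lower with H1.0 siRNA and Smad3 the member called higher. Smad2, Smad4 and Smad7 passed the test in none of the comparisons. A gene was called at an adjusted p under 0.01 from edgeR's quasi-likelihood test over all 18028 genes, and normalized counts are TMM-scaled counts per library at a common depth.

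The counts of called members read against all genes as follows. With TGF-β in scramble cells 3 of 10 members were higher and 2 lower, where 10.5% of all genes were higher and 7.94% lower. In H1.0 siRNA cells TGF-β again gave 3 higher and 2 lower, beside 9.14% and 6.6% of all genes. H1.0 siRNA in vehicle gave 1 member higher and 4 lower, beside 13.4% and 11.2%. In TGF-β it gave 1 higher and 1 lower, beside 13% and 11.3%, and fits with the replicate number as a block or with DESeq2 called 3 members lower there, beside 16% of all genes with the block and 14.7% with DESeq2. H1.0 siRNA with TGF-β against scramble with vehicle gave 2 higher and 0 lower, beside 19% and 15.4%. In that last comparison 2 members had an unadjusted p under 0.05 in the lower direction by edgeR, DESeq2 also called 0 lower, and the fit with the replicate block called 1, beside 20% of all genes. The median log2 fold change of the 10 members was 0.09 with TGF-β in scramble cells, 0.36 with TGF-β in H1.0 siRNA cells, −0.16 with H1.0 siRNA in vehicle and −0.10 with H1.0 siRNA in TGF-β. The medians over all genes in the same comparisons were −0.01, −0.01, 0.00 and 0.04. All genes here include those with as few as 10 counts in total. Under the stricter filterByExpr count filter, which left 14656 genes, the shares called were larger. They were 13.5% higher and 10.8% lower for TGF-β in scramble cells, and 16.6% and 15% for H1.0 siRNA in vehicle.

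**Figure D1:**
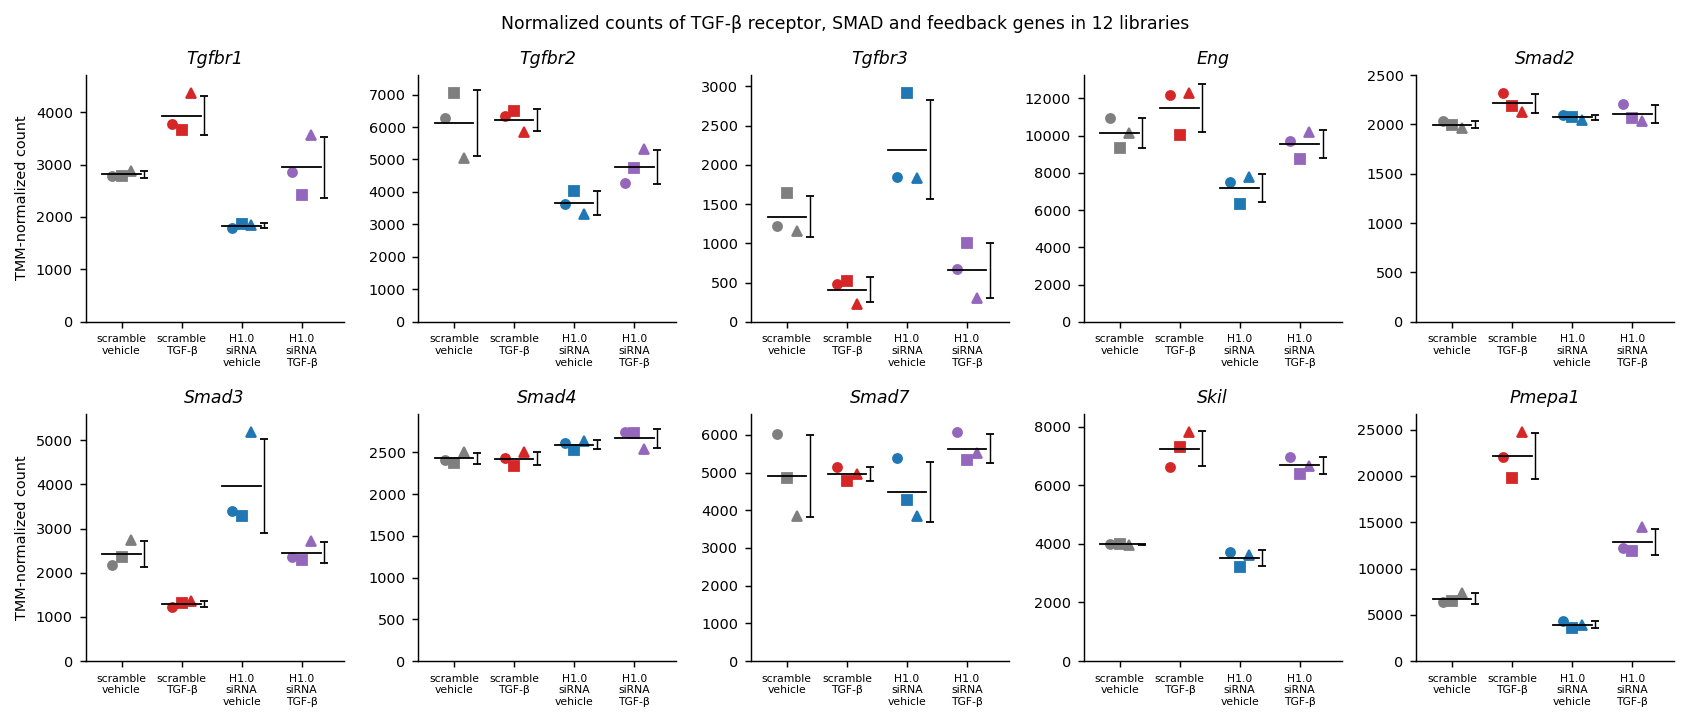
TMM-normalized counts (vertical axes, from 0, scaled per gene) of the 10 genes in the 4 groups, with 1 point per library, marker shape for the replicate number, a line for the group mean and a bar of ±1 SD (n = 3). Pmepa1 and Skil separated TGF-β from vehicle in both siRNA arms, Smad3 and Tgfbr3 did so in the opposite direction, and Smad2 and Smad4 stayed between 1964 and 2741 in all 12 libraries.

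**Figure D2:**
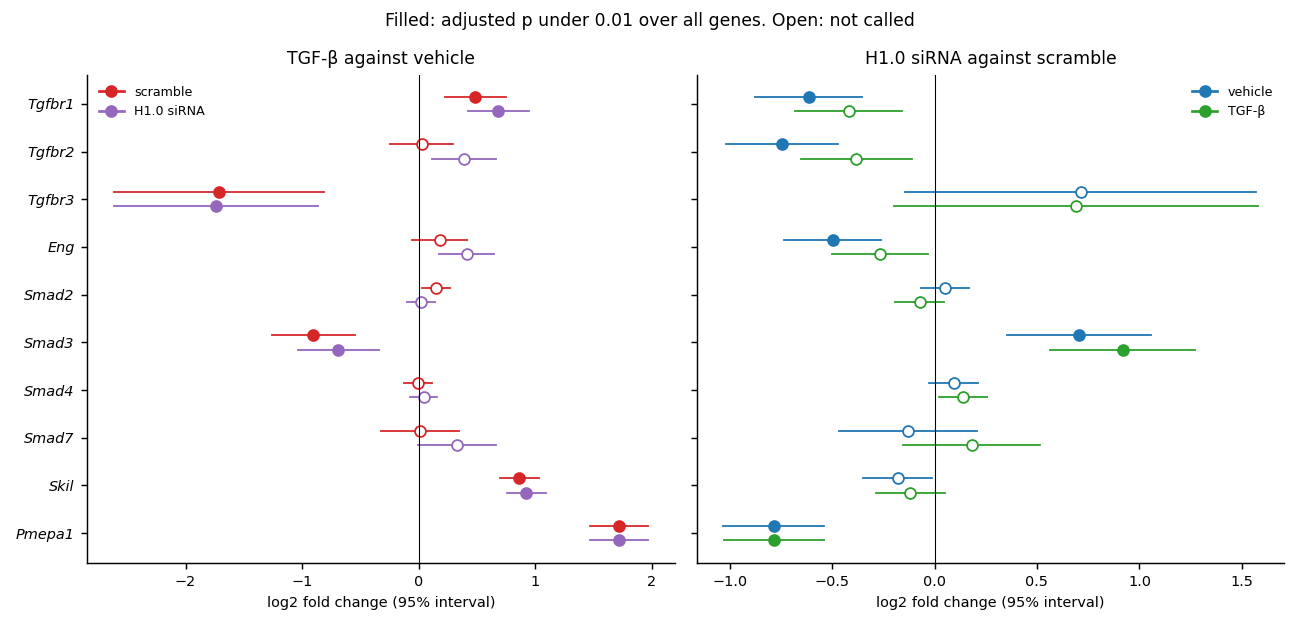
Log2 fold change (horizontal axes) of each gene with its 95% interval, for TGF-β against vehicle (left, by siRNA) and for H1.0 siRNA against scramble (right, by medium). Filled points had an adjusted p under 0.01 over all genes and open points did not. Pmepa1 sat at 1.72 for TGF-β in both siRNA arms and at −0.78 for H1.0 siRNA in both media.

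Promoters were available for 4 members, in a RefSeq table on build GRCm38.p6, and are shown because Tgfbr1, Tgfbr2 and Eng were lower together with H1.0 siRNA in vehicle while Smad3 was higher. Each run holds the 250 bases before the transcription start, 5′ to 3′ on the gene's own strand. Capitals mark matches, on either strand, to the SMAD box (CAGAC or GTCTG), the GC box (GGGCGG or CCGCCC) or the AP-1 site (TGAGTCA or TGACTCA). The locations are chr4:47352972-47353221 on the + strand for Tgfbr1, chr9:116175364-116175613 on the − strand for Tgfbr2, chr2:32646345-32646594 on the + strand for Eng and chr9:63757995-63758244 on the − strand for Smad3.
Tgfbr1: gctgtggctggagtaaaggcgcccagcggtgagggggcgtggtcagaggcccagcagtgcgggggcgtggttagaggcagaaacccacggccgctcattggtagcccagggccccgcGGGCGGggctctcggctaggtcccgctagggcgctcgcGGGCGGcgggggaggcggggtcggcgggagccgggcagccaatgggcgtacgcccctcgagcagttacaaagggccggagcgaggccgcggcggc
Tgfbr2: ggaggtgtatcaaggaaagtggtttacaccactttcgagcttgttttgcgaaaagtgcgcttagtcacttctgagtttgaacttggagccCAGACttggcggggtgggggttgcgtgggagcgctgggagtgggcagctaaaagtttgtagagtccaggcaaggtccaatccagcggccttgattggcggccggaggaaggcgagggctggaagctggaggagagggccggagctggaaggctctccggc
Eng: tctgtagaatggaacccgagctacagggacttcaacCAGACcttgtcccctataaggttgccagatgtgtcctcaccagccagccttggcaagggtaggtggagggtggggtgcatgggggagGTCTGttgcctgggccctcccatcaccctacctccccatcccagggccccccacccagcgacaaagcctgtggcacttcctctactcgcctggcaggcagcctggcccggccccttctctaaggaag
Smad3: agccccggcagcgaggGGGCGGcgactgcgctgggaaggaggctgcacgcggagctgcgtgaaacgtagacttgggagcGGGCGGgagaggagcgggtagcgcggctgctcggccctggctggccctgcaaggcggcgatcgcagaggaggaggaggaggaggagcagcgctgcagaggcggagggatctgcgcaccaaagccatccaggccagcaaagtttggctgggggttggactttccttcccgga

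The SMAD box, the core of the motif that SMAD3 and SMAD4 bind, matched 2 times before Eng, starting 214 and 127 bases before the start, and 1 time before Tgfbr2, starting at 160 bases. It had 0 matches in these windows of Tgfbr1 and Smad3. The GC box, a motif of the SP1 family, matched 2 times before Tgfbr1 and 2 times before Smad3 and 0 times before Tgfbr2 and Eng, and the AP-1 site matched in none of the 4 windows. Over all 32851 promoter windows of the table, 42.2% held a SMAD box, 32.7% a GC box and 4.46% an AP-1 site, so these matches are common letters and describe the windows only. The G and C content of the windows was 74.8% for Tgfbr1, 58.4% for Tgfbr2, 62.4% for Eng and 69.2% for Smad3, against a median of 52.4%. A further window of Tgfbr1, at an internal start, held 1 SMAD box and is not shown.

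Tgfbr1, the type I receptor kinase, is found at 47353222 to 47414931 of chromosome 4 (GRCm38). Its normalized counts in scramble cells were 2777, 2777 and 2878 in vehicle and 3780, 3658 and 4368 with TGF-β. Under H1.0 siRNA they were 1785, 1871 and 1848 in vehicle and 2850, 2413 and 3573 with TGF-β. The TGF-β libraries lay wholly above vehicle in both arms, and the H1.0 siRNA libraries wholly below scramble in both media. TGF-β raised Tgfbr1 by 0.49 on the log2 scale in scramble cells (standard error 0.12, adjusted p = 0.0097) and by 0.68 in H1.0 siRNA cells (standard error 0.12, adjusted p = 0.0017). The call in scramble cells stood close to the threshold, and it was lost with RLE size factors (adjusted p = 0.011), with a transcript length offset (adjusted p = 0.034) and without any 1 of 10 of the 12 libraries, among them all 6 scramble libraries.

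H1.0 siRNA lowered Tgfbr1 in vehicle, by −0.62 on the log2 scale (SE 0.12, adjusted p = 0.0019). Without Veh_H1.0_siRNA replicate 1 this call and the TGF-β call in H1.0 siRNA cells both came to an adjusted p of 0.011. In TGF-β the difference was −0.42 with an adjusted p of 0.017, which missed the threshold. There the groups did not overlap, and the fit with the replicate block (log2 fold change −0.43, adjusted p = 0.0026) and DESeq2 (−0.45, adjusted p = 0.0038) called it. Without TGFb_H1.0_siRNA replicate 3, the library with the highest Tgfbr1 of its group, the difference was −0.58 (adjusted p = 0.00077). Cells with H1.0 siRNA and TGF-β differed from scramble cells with vehicle by 0.07 (95% interval −0.19 to 0.33).

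Tgfbr2, the ligand-binding type II receptor on chromosome 9 from 116084293 to 116175360 (− strand), was not called with TGF-β in scramble cells. The normalized counts there were 6282, 7053 and 5037 with vehicle and 6343, 6497 and 5849 after TGF-β, and the groups overlapped. This is a log2 difference of 0.02 with a 95% interval of −0.25 to 0.30. After H1.0 siRNA the counts were 3620, 4031 and 3309 in vehicle and 4287, 4730 and 5329 with TGF-β, without overlap. That difference, 0.39 (standard error 0.12), missed the threshold with an adjusted p of 0.036.

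H1.0 siRNA lowered Tgfbr2 in vehicle by −0.75 on the log2 scale (standard error 0.12, adjusted p = 0.00073), to a fold of 0.596 of scramble. In TGF-β the log2 fold change was −0.38 (adjusted p = 0.032), not called by edgeR and called by DESeq2 (−0.42, adjusted p = 0.0078), while every H1.0 siRNA library lay below every scramble library. The difference between these siRNA effects, which is the interaction, was 0.36 (95% interval −0.02 to 0.75, adjusted p = 0.45). This was the widest interaction of the 10 members and did not pass the test. Cells with H1.0 siRNA and TGF-β had −0.36 against scramble cells with vehicle (adjusted p = 0.034), and without Veh_siScramble replicate 3, the lowest of its group, −0.48 (adjusted p = 0.0046).

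The coding sequences of the 2 annotated Tgfbr2 transcripts differ by an exon. Tgfbr2-202 carries 75 coding bases, at chr9:116158271-116158345 on the − strand of GRCm38, that Tgfbr2-201 lacks, which makes a coding sequence of 1776 against 1701 bases and an extra stretch of 25 residues near the start of the receptor. The run below, from GENCODE transcripts, shows that exon in capitals between 15 bases of each neighbouring exon in lower case.
Tgfbr2-202: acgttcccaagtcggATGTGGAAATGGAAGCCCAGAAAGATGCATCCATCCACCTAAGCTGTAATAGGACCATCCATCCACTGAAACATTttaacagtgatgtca

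The longer form held 32.3 ± 2.29% (SD, n = 3) of Tgfbr2 TPM in scramble cells with vehicle and 34.3 ± 0.245% with TGF-β. With H1.0 siRNA it held 32.9 ± 0.0917% with vehicle and 33.6 ± 1.5% with TGF-β. Over the 12 libraries the share stayed between 29.8% and 34.5%, while the level of the gene itself spanned 45.6 to 104.2 TPM. As a share of estimated counts it was higher, between 50.6% and 56%, because Tgfbr2-202 is the longer transcript with 8092 bases against 3476. The exon holds only 75 of the bases by which they differ. These shares are therefore of whole transcripts and do not measure use of the exon alone. With 3 against 3 libraries an exact permutation test cannot go below p = 0.1, so shares of transcript forms are given as descriptions here and for Eng and Skil.

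Tgfbr3, betaglycan, the coreceptor that presents ligand to TGFBR2, showed the widest decrease with TGF-β among the members. Located on chromosome 5 from 107106570 to 107289629 (− strand), it had normalized counts of 1218, 1640 and 1157 in scramble cells with vehicle and 480.9, 515.7 and 229.2 with TGF-β. With H1.0 siRNA the counts were 1841, 2918 and 1826 in vehicle and 667.2, 1002 and 302.1 with TGF-β. Every TGF-β library lay below every vehicle library of its arm. Replicate 3 was the lowest of its group in each of the 4 groups.

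TGF-β lowered Tgfbr3 on the log2 scale by −1.72 in scramble cells (SE 0.41, adjusted p = 0.0084) and by −1.74 in H1.0 siRNA cells (SE 0.40, adjusted p = 0.0077), a fold of 0.305 and 0.3. The direction held in every alternative that was run. The calls stood near the threshold, however, and summing protein-coding transcripts alone gave −1.62 (adjusted p = 0.016) and −1.73 (adjusted p = 0.012). Leaving out any 1 of 9 libraries lost the call in scramble cells, and any 1 of 10 lost it in H1.0 siRNA cells, each with the same direction. Without TGFb_H1.0_siRNA replicate 3 the decrease in H1.0 siRNA cells was −1.39, and without TGFb_siScramble replicate 3 that in scramble cells was −1.43.

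Comparing siRNAs, Tgfbr3 had a log2 difference of 0.71 in vehicle (95% interval −0.14 to 1.57, adjusted p = 0.18) and 0.69 in TGF-β (95% interval −0.20 to 1.58, adjusted p = 0.22), neither called. The vehicle libraries with H1.0 siRNA lay wholly above those with scramble, and in TGF-β the groups overlapped. Within same-numbered pairs H1.0 siRNA was higher in 3 of 3 in each medium. How many of all genes separate without overlap was not counted, for this or any other member. Against scramble cells with vehicle, cells with both H1.0 siRNA and TGF-β had −1.03 (adjusted p = 0.052), and the replicate block gave −1.13 (adjusted p = 0.00096).

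Eng, endoglin, a coreceptor that is abundant in endothelium and also made by activated fibroblasts, had the highest level per length of the members in both vehicle groups. The gene lies on chromosome 2 from 32646595 to 32682669. In scramble cells its normalized counts were 10940, 9342 and 10140 in vehicle and 12160, 10010 and 12300 with TGF-β, which overlapped. With H1.0 siRNA they were 7486, 6312 and 7757 in vehicle and 9700, 8759 and 10210 with TGF-β, which did not.

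H1.0 siRNA lowered Eng in vehicle by −0.50 on the log2 scale (SE 0.11, adjusted p = 0.0038), and leaving out Veh_siScramble replicate 1 or 3 or Veh_H1.0_siRNA replicate 2 lost that call (adjusted p from 0.01 to 0.016). In TGF-β the difference was −0.27 (adjusted p = 0.077), and with the replicate block −0.26 (adjusted p = 0.0027). For TGF-β against vehicle Eng had 0.18 in scramble cells (adjusted p = 0.23) and 0.41 in H1.0 siRNA cells (adjusted p = 0.015). In the H1.0 siRNA arm DESeq2 (0.41, adjusted p = 0.0017) and the replicate block (0.41, adjusted p = 0.00017) called it higher.

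The 8 endothelial markers summed to 43.5 to 65.8 TPM in scramble cells with vehicle, 38.8 to 43.7 TPM with TGF-β, 31.3 to 40.1 TPM with H1.0 siRNA and vehicle, and 28.3 to 31 TPM with H1.0 siRNA and TGF-β. The lower sums with H1.0 siRNA came from Tek, the one marker called, which had 29.6 and 7.82 TPM in vehicle (log2 fold change −1.995, adjusted p = 7.7e-05) and 18.3 and 7.5 TPM in TGF-β (−1.19, adjusted p = 0.002) in scramble and H1.0 siRNA cells. The other 7 summed to a mean of 27.1 and 27.7 TPM in vehicle and 22.2 and 21.8 TPM in TGF-β. None was at 0, and Cldn5 was under 1 TPM in every group mean. Eng alone stood at 154.1 to 277.8 TPM per library, above the sum of the 8 markers in each. The part of endothelial cells in the Eng values was not tested.

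Endoglin RNA is annotated with a long and a short cytoplasmic tail, which differ in the last coding exon. Eng-201 and Eng-205 splice to an exon coding 122 tail bases at chr2:32681437-32681558 (+ strand), and Eng-202 reads on through the intron for 86 coding bases at chr2:32681298-32681383. Both tails are shown from GENCODE transcripts on GRCm38, in capitals after the 15 shared coding bases and before the stop codon.
Eng-201: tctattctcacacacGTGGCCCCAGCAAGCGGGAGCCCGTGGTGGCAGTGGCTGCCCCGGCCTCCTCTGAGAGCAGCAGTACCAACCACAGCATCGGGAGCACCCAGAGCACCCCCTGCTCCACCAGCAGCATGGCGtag
Eng-202: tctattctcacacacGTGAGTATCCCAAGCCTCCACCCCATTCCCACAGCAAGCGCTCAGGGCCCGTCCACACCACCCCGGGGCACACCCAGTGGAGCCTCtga

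Of the TPM on these 3 transcripts, the short tail form held 33.3 ± 1.8% (SD, n = 3) in scramble cells with vehicle and 30.7 ± 0.711% with TGF-β. Under H1.0 siRNA it held 36.9 ± 2.88% in vehicle and 32.6 ± 2.16% after TGF-β. In scramble cells the TGF-β libraries (29.9% to 31.2%) lay below the vehicle libraries (31.3% to 34.7%) with almost no gap, and in H1.0 siRNA cells the ranges of 30.9% to 35% and 34.7% to 40.2% overlapped.

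Smad2, the receptor-regulated SMAD on chromosome 18 from 76241580 to 76310963, was among the most even members. Its normalized counts in scramble cells were 2037, 1994 and 1964 in vehicle and 2320, 2191 and 2128 with TGF-β. After H1.0 siRNA they were 2097, 2074 and 2043 in vehicle and 2206, 2065 and 2039 with TGF-β. In scramble cells the TGF-β libraries lay above the vehicle libraries without overlap, by 0.15 on the log2 scale (95% interval 0.03 to 0.27, adjusted p = 0.059). The other differences were 0.02 for TGF-β in H1.0 siRNA cells (95% interval −0.10 to 0.14), 0.05 for H1.0 siRNA in vehicle (−0.07 to 0.17) and −0.07 in TGF-β (−0.19 to 0.05).

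Smad3, which shares receptor activation with SMAD2 and binds DNA directly, was called in all 4 comparisons of TGF-β with vehicle and of H1.0 siRNA with scramble. It lies on chromosome 9 from 63646767 to 63757994 (− strand). Its normalized counts were 2180, 2361 and 2747 in scramble cells with vehicle and 1223, 1311 and 1361 with TGF-β. With H1.0 siRNA they were 3401, 3283 and 5185 in vehicle and 2353, 2284 and 2724 with TGF-β. TGF-β libraries lay wholly below vehicle in both arms, and H1.0 siRNA libraries wholly above scramble in both media.

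TGF-β lowered Smad3 on the log2 scale by −0.90 in scramble cells (standard error 0.16, adjusted p = 0.0017) and by −0.69 in H1.0 siRNA cells (standard error 0.16, adjusted p = 0.0078). H1.0 siRNA raised it by 0.70 in vehicle (standard error 0.16, adjusted p = 0.0048) and by 0.92 in TGF-β (standard error 0.16, adjusted p = 0.001). H1.0 siRNA and TGF-β together differed from scramble with vehicle by 0.01 (95% interval −0.33 to 0.36), and the interaction was 0.21 (95% interval −0.28 to 0.71, adjusted p = 0.79).

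Veh_H1.0_siRNA replicate 3, at 5185, stood above the other libraries of its group. Without it the decrease with TGF-β in H1.0 siRNA cells was −0.44 and lost the call (adjusted p = 0.014), and the increase with H1.0 siRNA in vehicle was 0.45 and kept it (adjusted p = 0.0099). The call for the decrease with TGF-β in H1.0 siRNA cells was lost on leaving out 10 of the 12 libraries in turn. It was also lost with the transcript length offset (−0.62, adjusted p = 0.025). The increase with H1.0 siRNA in vehicle was lost with that offset too (0.55, adjusted p = 0.033), and without Veh_siScramble replicate 1 (0.63, adjusted p = 0.027) or replicate 2 (0.68, adjusted p = 0.02). No alternative that was run lost the decrease in scramble cells or the increase with H1.0 siRNA in TGF-β.

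**Figure D3:**
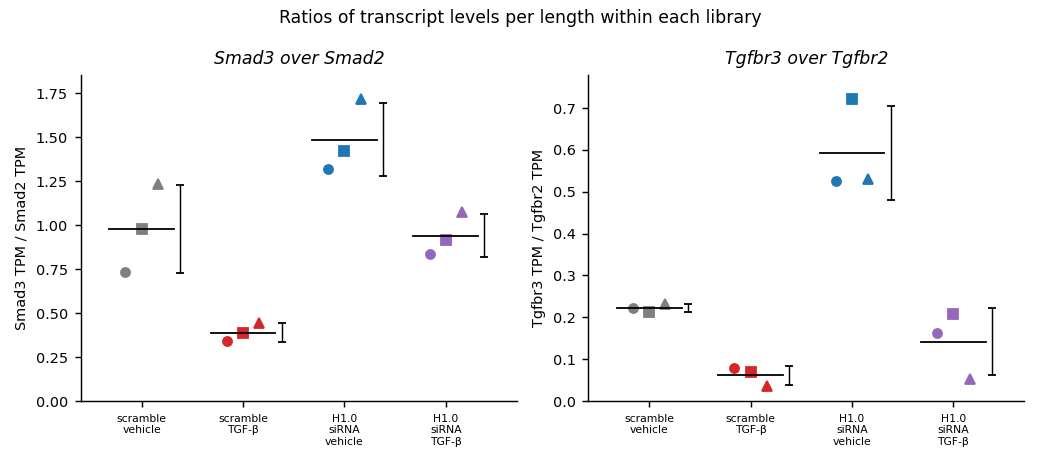
Ratio of TPM of Smad3 to Smad2 (left) and of Tgfbr3 to Tgfbr2 (right), both axes from 0, with 1 point per library, marker shape for the replicate number, a line for the mean and a bar of ±1 SD (n = 3). Smad3 over Smad2 lay between 0.339 and 0.444 in scramble cells with TGF-β, below all other libraries, and Tgfbr3 over Tgfbr2 lay between 0.526 and 0.722 with H1.0 siRNA and vehicle, above all other libraries.

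Set against Smad2 within each library, Smad3 was at a TPM ratio of 0.981 ± 0.25 (SD, n = 3) in scramble cells with vehicle and 0.389 ± 0.0524 with TGF-β. With H1.0 siRNA the ratio was 1.49 ± 0.208 with vehicle and 0.942 ± 0.122 with TGF-β. The transcript of SMAD3 thus ranged from under that of SMAD2 to above it across the groups, and the group of H1.0 siRNA with TGF-β lay within the range of 0.733 to 1.23 of scramble with vehicle. The ratio of Tgfbr3 to Tgfbr2 was 0.221 ± 0.00991 and 0.061 ± 0.0227 in scramble cells with vehicle and TGF-β, and 0.593 ± 0.112 and 0.141 ± 0.0798 in H1.0 siRNA cells.

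Smad4, the common partner of the receptor-regulated SMADs, on chromosome 18 from 73639009 to 73703780 (− strand), kept its normalized counts between 2340 and 2741 in all 12 libraries. In scramble cells they were 2410, 2375 and 2504 in vehicle and 2431, 2340 and 2498 with TGF-β. With H1.0 siRNA they were 2610, 2532 and 2631 in vehicle and 2741, 2725 and 2537 with TGF-β. All 6 H1.0 siRNA libraries lay above all 6 scramble libraries, by a small margin. The log2 difference between the siRNAs was 0.09 in vehicle (95% interval −0.03 to 0.21) and 0.14 in TGF-β (95% interval 0.02 to 0.26, adjusted p = 0.064), and TGF-β gave −0.004 in scramble cells (95% interval −0.12 to 0.11).

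Pmepa1, a membrane protein that binds SMAD2 and SMAD3 away from the receptor, showed the widest increase with TGF-β of the 10 members. It is on chromosome 2 from 173224458 to 173276533 (− strand). Its normalized counts were 6381, 6435 and 7386 in scramble cells with vehicle and 22010, 19760 and 24740 with TGF-β. With H1.0 siRNA they were 4288, 3531 and 3912 in vehicle and 12270, 11900 and 14450 with TGF-β. The 4 groups did not overlap, with H1.0 siRNA and vehicle the lowest and scramble with TGF-β the highest.

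On the log2 scale TGF-β raised it by 1.72 in scramble cells (standard error 0.11, adjusted p = 1.3e-05) and by 1.72 in H1.0 siRNA cells (standard error 0.11, adjusted p = 5.9e-06), or 3.29-fold in each. H1.0 siRNA lowered the level by −0.78 on the log2 scale in vehicle (adjusted p = 0.00026) and by −0.78 in TGF-β (adjusted p = 0.00025), a change of −41.9% in each. The interaction was 0.00 (95% interval −0.34 to 0.34), so a difference in fold between the arms was not detected, and one within that interval cannot be told from none. These 4 calls held in every alternative that was run, with each library left out in turn among them.

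Skil, which encodes the SMAD corepressor SnoN, on chromosome 3 from 31095058 to 31122577, rose with TGF-β in both arms. The normalized counts were 4006, 3983 and 3950 in scramble cells with vehicle and 6620, 7306 and 7813 with TGF-β. With H1.0 siRNA they were 3738, 3201 and 3608 in vehicle and 6972, 6396 and 6666 with TGF-β. No TGF-β library overlapped a vehicle library. The increase on the log2 scale was 0.86 in scramble cells (standard error 0.08, adjusted p = 4.8e-05) and 0.93 in H1.0 siRNA cells (standard error 0.08, adjusted p = 2.1e-05), and both calls held in every alternative that was run.

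With H1.0 siRNA the level of Skil differed by −0.18 in vehicle (95% interval −0.35 to −0.01, adjusted p = 0.093) and by −0.12 in TGF-β (95% interval −0.29 to 0.05, adjusted p = 0.27). Neither was called. In vehicle the 3 H1.0 siRNA libraries lay below the 3 scramble libraries, and in TGF-β the groups overlapped. Skil and Pmepa1 were the 2 members higher in H1.0 siRNA cells with TGF-β than in scramble cells with vehicle, by 0.75 (standard error 0.08, adjusted p = 1.9e-05) and 0.94 (standard error 0.11, adjusted p = 5.1e-05).

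SnoN is annotated in forms with and without a stretch of 138 coding bases, or 46 residues, at chr3:31113503-31113640 on the + strand of GRCm38. Skil-201 and Skil-203 hold it and Skil-204 and Skil-202 lack it, from the use of an earlier splice site in the same exon. The run, from GENCODE transcripts, shows the stretch of Skil-201 in capitals between 15 coding bases on either side.
Skil-201: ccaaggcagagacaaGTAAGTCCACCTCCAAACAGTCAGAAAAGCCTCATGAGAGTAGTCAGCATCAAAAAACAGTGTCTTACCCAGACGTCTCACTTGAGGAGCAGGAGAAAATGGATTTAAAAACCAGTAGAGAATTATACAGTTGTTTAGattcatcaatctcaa

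The form without the stretch made up 54 ± 1.6% (SD, n = 3) of the TPM on these 4 transcripts in scramble cells with vehicle and 52.9 ± 4.39% with TGF-β. After H1.0 siRNA it made up 62.9 ± 3.12% with vehicle and 60.9 ± 3.6% with TGF-β. In vehicle the H1.0 siRNA libraries (60.7% to 66.5%) lay wholly above the scramble libraries (52.1% to 55%), and in TGF-β the ranges of 56.8% to 63.5% and 48.5% to 57.3% overlapped. Depth moved with this value for 1 transcript: Skil-202 was listed at 0 in the 8 shallower libraries and held 1.2% to 4.91% of Skil counts in the 4 deepest libraries. Veh_H1.0_siRNA replicates 1 and 2, with Skil-202 at 0, had shares of 61.6% and 66.5%, and replicate 3 had 60.7%. In TGFb_H1.0_siRNA replicates 1, 2 and 3 Skil-202 held 2.53%, 3.38% and 9.67% of Skil TPM, which counts toward the shares there. The part of Skil-202 in the shares was not tested.

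**Figure D4:**
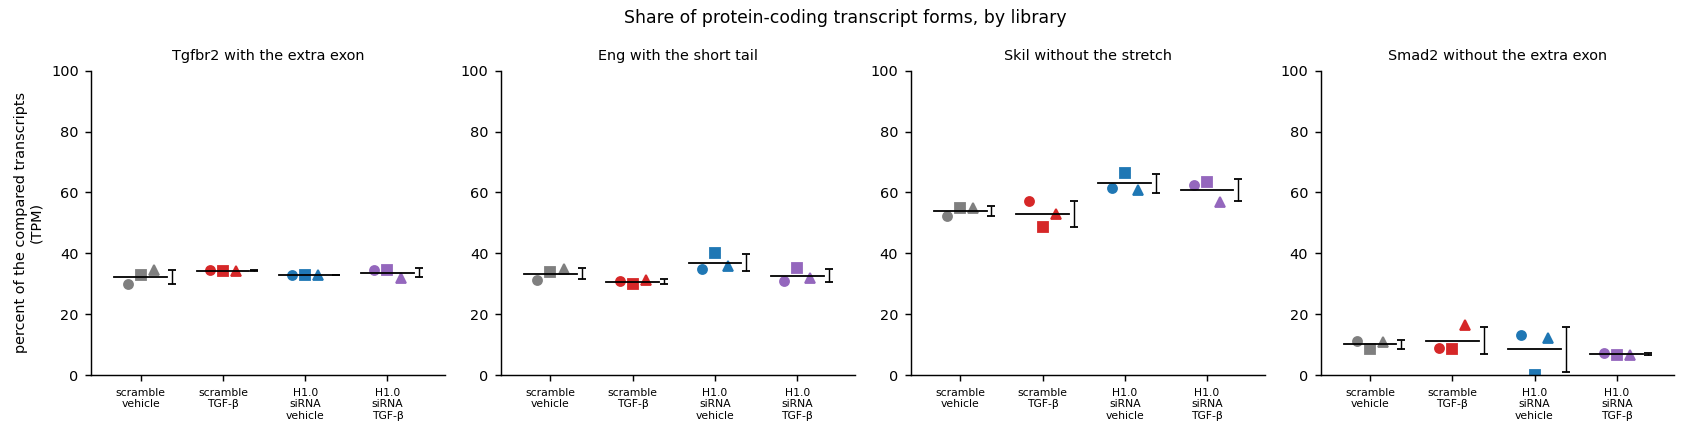
Share (percent of TPM, 0 to 100) of 1 form among the compared protein-coding transcripts of Tgfbr2, Eng, Skil and Smad2 in each library, with marker shape for the replicate number, a line for the mean and a bar of ±1 SD (n = 3). The Tgfbr2 share stayed between 29.8% and 34.5%, and the Skil share was 60.7% to 66.5% with H1.0 siRNA and vehicle against 52.1% to 55% with scramble and vehicle.

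Smad7, the inhibitory SMAD that blocks the activated type I receptor, is a feedback gene as well, on chromosome 18 from 75367529 to 75395935, yet it was not called with TGF-β. Its normalized counts were 6031, 4859 and 3860 in scramble cells with vehicle and 5155, 4780 and 4974 with TGF-β. With H1.0 siRNA they were 5375, 4265 and 3840 in vehicle and 6072, 5321 and 5506 with TGF-β. The vehicle libraries were spread widely, with an SD of 22.1% of the mean in scramble cells and 17.6% with H1.0 siRNA, against 3.77% and 6.95% with TGF-β. The TGF-β difference on the log2 scale was 0.01 in scramble cells (95% interval −0.32 to 0.35) and 0.33 in H1.0 siRNA cells (95% interval −0.01 to 0.66, adjusted p = 0.14), and the siRNA difference was −0.13 in vehicle (95% interval −0.47 to 0.21) and 0.18 in TGF-β (95% interval −0.15 to 0.52).

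The interaction of siRNA and TGF-β was called for 0 of the 10 members, beside 0.0333% of all genes higher and 0.0111% lower. By edgeR 0 members had an unadjusted p under 0.05, DESeq2 called 0 members, and the fit with the replicate block had 2 members at an unadjusted p under 0.05 and called 0. Over all genes 11.9% had an unadjusted p under 0.05 by edgeR and 18.3% with the block, so 2 of 10 was near the background. The estimates ran from −0.13 for Smad2 to 0.36 for Tgfbr2. The comparisons of TGF-β in the 2 arms share no library, while each siRNA comparison shares libraries with a TGF-β comparison.

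Levels per length ranked the members differently from their counts. In scramble cells with vehicle the mean level was 241.9 TPM for Eng, 155.7 for Pmepa1, 138.6 for Smad7, 91.3 for Tgfbr2, 59.3 for Smad4, 50.6 for Smad2, 49.6 for Skil, 48.9 for Smad3, 43.1 for Tgfbr1 and 20.1 for Tgfbr3. Of the neighbours in this order, Pmepa1 and Smad7, Smad2 and Skil, Skil and Smad3, and Smad3 and Tgfbr1 had overlapping libraries, and the others did not. With TGF-β in scramble cells Pmepa1 led with 480.5 TPM, Eng followed with 264.2, and Smad3 and Tgfbr3 closed the order with 20.5 and 5.44. With H1.0 siRNA and vehicle the lowest were Tgfbr3 at 31.6 TPM and Tgfbr1 at 27.6.

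Cells with H1.0 siRNA and TGF-β had 266.1 ± 44.2 TPM of Pmepa1 (SD, n = 3), 208.9 ± 11.6 of Eng and 164 ± 14.1 of Smad7. The type I receptor stood at a TPM ratio to the type II receptor of 0.485 ± 0.107 (SD, n = 3) in scramble cells with vehicle and 0.663 ± 0.107 with TGF-β, and 0.53 ± 0.069 and 0.654 ± 0.111 in H1.0 siRNA cells. These ratios overlapped between vehicle and TGF-β in both arms. Summing protein-coding transcripts alone lowered the mean level of Tgfbr3 with H1.0 siRNA and vehicle to 22.7 TPM and that of Smad7 in scramble cells with vehicle to 105.7 TPM, since noncoding transcripts of these genes also took counts.

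**Figure D5:**
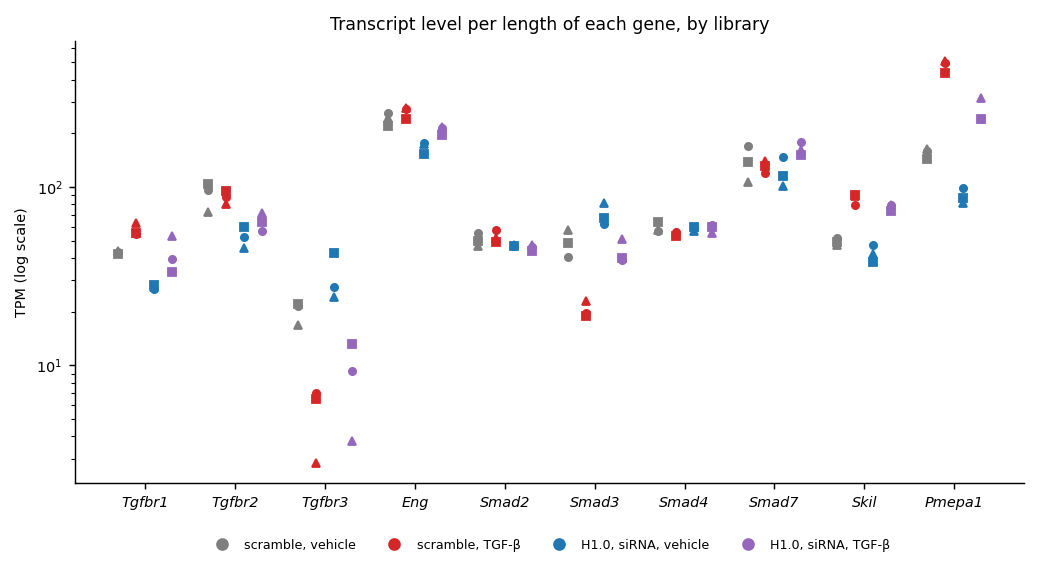
TPM (vertical axis, log scale) of each gene in each of the 12 libraries, coloured by group and with marker shape for the replicate number. Pmepa1 reached 435 to 510.8 TPM in scramble cells with TGF-β, and Tgfbr3 fell to 2.845 to 6.967 TPM there.

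For edgeR's calls in the lists of other pathway genes, the shares over all genes are those given above for the members. The receptor list (activin and BMP receptors, Bambi, Cd109 and Nrp1) had 2 of 12 higher and 2 lower with TGF-β in scramble cells, at a median of 0.05 on the log2 scale. The replicate block gave 4 lower, beside 13% of all genes. Bmpr1b, a type I BMP receptor, rose by 2.23 (adjusted p = 0.00075) and Acvr1, a type I receptor of BMPs and activins, by 0.40 (adjusted p = 0.0022). Acvr2b, a type II activin receptor, and the semaphorin and VEGF coreceptor Nrp1 fell, with −0.84 (adjusted p = 0.0067) and −0.60 (adjusted p = 0.0037). Under H1.0 siRNA TGF-β raised 3 of 12, at a median of 0.13, with Bmpr1b at 2.27, Acvr1 at 0.63 and the type II BMP receptor Bmpr2 at 0.54. There edgeR called 0 lower, with 4 lower at an unadjusted p under 0.05, while DESeq2 called 2 and the block 3. Over all genes 10.7% were lower by DESeq2 and 12.6% with the block, and 39.1% had an unadjusted p under 0.05 in either direction by edgeR.

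Between siRNAs, 1 receptor of 12 was higher in vehicle (median −0.01), and 2 were higher and 1 lower in TGF-β (median 0.00). Lower in vehicle were 0 by edgeR, 3 at an unadjusted p under 0.05, 1 by DESeq2 and 3 with the block. Over all genes 14.8% were lower by DESeq2 and 16.2% with the block, and 44.4% had an unadjusted p under 0.05 in either direction by edgeR. Acvr2b was higher with H1.0 siRNA in both media, by 1.17 (adjusted p = 0.00042) and 1.76 (adjusted p = 3.3e-05). Bambi, a decoy receptor without a kinase, was the one lower in TGF-β, with −0.97 (adjusted p = 0.0043). The block called 2 lower there, beside 16% of all genes.

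The other SMADs, those of the BMP branch and the inhibitory Smad6, had 1 of 4 lower with TGF-β in each arm, at a median of −0.26 in scramble and −0.17 in H1.0 siRNA cells. The one that fell was Smad9, with −2.24 in scramble cells (adjusted p = 0.002) and −2.37 in H1.0 siRNA cells (adjusted p = 0.0017). H1.0 siRNA lowered 2 of 4 in each medium, at a median of −0.46 in vehicle and −0.61 in TGF-β. These were the inhibitory Smad6, with −1.40 in vehicle (adjusted p = 0.0026) and −1.13 in TGF-β (adjusted p = 0.009), and Smad1, with −0.35 and −0.51.

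Among 7 corepressors and nuclear cofactors, TGF-β raised 1 in scramble cells (median −0.13) and 2 in H1.0 siRNA cells (median 0.06), and the rest were not called. Tgif1, a SMAD corepressor, rose by 0.31 (adjusted p = 0.0083) and 0.53 (adjusted p = 0.00046). H1.0 siRNA lowered 3 of 7 in vehicle (median −0.23) and 2 of 7 in TGF-β (median −0.11), with the corepressor Tgif2 at −1.81 and −1.07 and the acetyltransferase Crebbp at −0.66 and −0.44.

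The 18 genes of anchoring, ubiquitin and phosphatase control had 5 higher and 5 lower with TGF-β in scramble cells (median 0.07). There the ubiquitin ligases Nedd4l and Wwp1 fell, with −0.87 (adjusted p = 0.0008) and −0.65 (adjusted p = 0.00017), the feedback inhibitor Ldlrad4 rose by 0.66 and the adaptor Dab2 fell, with −0.62. Under H1.0 siRNA 5 rose and 3 fell with TGF-β (median 0.07). Between siRNAs 4 were higher and 7 lower in vehicle (median −0.10) and 3 higher and 5 lower in TGF-β (median 0.09). Dab2 was lower with H1.0 siRNA by −0.73 (adjusted p = 0.0011) and −0.78 (adjusted p = 0.00075), and Itch, a ubiquitin ligase, was higher by 0.51 and 0.47.

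Of 10 established target genes, 7 rose with TGF-β in scramble cells, at a median of 0.81 on the log2 scale, and 8 rose in H1.0 siRNA cells, at a median of 1.13. Ltbp2, a gene of the latent TGF-β binding protein family, rose by 2.26 and 3.87, and the matricellular gene Postn by 2.22 and 1.89, in scramble and H1.0 siRNA cells. With H1.0 siRNA 3 of 10 were lower and 1 higher in vehicle (median −0.58), and 2 lower and 1 higher in TGF-β (median −0.09). Ltbp2 was lower in vehicle (−1.57, adjusted p = 0.0064) and near scramble in TGF-β (0.04, adjusted p = 0.95). Postn had −0.57 in vehicle (adjusted p = 0.027), not called, and −0.90 in TGF-β (adjusted p = 0.0022), called lower. Fibronectin (Fn1) was lower in both media, at −1.04 and −0.72. In vehicle DESeq2 and the replicate block each called 7 of 10 lower, where 14.8% and 16.2% of all genes were.

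In H1.0 siRNA cells with TGF-β against scramble cells with vehicle, 7 target genes were higher (median 0.87), 3 receptors were higher and 1 lower (median 0.11) and 3 of the other SMADs were lower (median −1.04). There 4 corepressors and cofactors were lower (median −0.25), and 6 genes of anchoring and turnover were higher and 6 lower (median 0.13). The interaction called 0 genes of the 5 lists by edgeR. At an unadjusted p under 0.05 it held 4 of 10 targets, 2 of 12 receptors, 1 of 7 corepressors and cofactors, 2 of 18 turnover genes and 0 of 4 SMADs, where 11.9% of all genes were under it. Among targets DESeq2 called 1 and the block 2, both in the direction of a larger rise under H1.0 siRNA. Over all genes 0.61% were called in that direction by DESeq2 and 0.41% with the block. By edgeR the interaction was below 0 for Postn (−0.33), Junb (−0.17) and Col1a1 (−0.02), none of them called.

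Over the 12 libraries, the gene whose log2 counts were most like Smad3 was Nfe2l2, with a Pearson r of 0.991 among 10987 genes compared, and Dhdh followed at 0.985. For Pmepa1 these were Zdhhc16 and Med14, both at 0.99, for Skil Yars2 at 0.987 and Ldlrad3 at 0.986, and for Tgfbr3 Tbc1d2b at 0.981 and Ptpdc1 at 0.979. Tgfbr1 was most like Kdelc1 (0.982) and Pdzd8 (0.981), Tgfbr2 most like Rnd3 (0.961) and Zfp334 (0.954), and Eng most like Tspan12 (0.97) and Gdf6 (0.957). The flatter members had looser matches, at 0.917 for Smad2 with Dnpep, 0.931 for Smad4 with Serinc1 and 0.874 for Smad7 with Dlc1. Among the members, Skil and Pmepa1 had an r of 0.954, Tgfbr3 and Pmepa1 −0.932 and Smad3 and Pmepa1 −0.863. These values describe 12 points in 4 groups that share library preparation and treatment, and they carry no test.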

How the data were processed

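The authors depleted ribosomal RNA from the 12 samples and quantified transcripts from the reads with Salmon on mm10, and their processing notes also name DESeq2. The deposited files give an estimated count, a TPM value and an effective length for each transcript. Replicates were described as biological, without a named isolation for each.

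Transcripts were matched to GENCODE M21 (GRCm38, the assembly of mm10) by identifier, 115973 of 117135, and estimated counts were summed per gene and rounded. The main test was edgeR's quasi-likelihood test (edgeR 4.0.16, R 4.3.3) with TMM in a joint fit of the 4 groups. It kept the 18028 genes whose counts came to 10 or more in total, with Benjamini-Hochberg adjustment over them and calls under 0.01. TMM counts were scaled to a library of 26.9 M. Standard errors are the log2 fold change over the square root of F, and intervals are at 95%. TPM per gene is the sum over its transcripts. Scripts were tested on simulated data. Named genes are the 10 members, up to 4 called genes per list and comparison that averaged 100 normalized counts or more in their higher group, and the 2 genes most like each member among those averaging 5 CPM or more. Members and lists were chosen with earlier results of these data known. Same-numbered replicates deviated together (18 of 18 pairs, r from 0.208 to 0.659), against a median r of −0.296 in differently numbered pairs. Pairs of a replicate 1 with a replicate 2 also had a positive r, up to 0.309. A fit with the replicate number as a block was therefore run beside the main test. Alternatives were DESeq2 1.42.0, other scalings, filters, transcript sets and depths, and leaving out each library. Shares of all genes with DESeq2 are of the 18028 genes. DESeq2 gave an adjusted p to 13471 to 16605 of them, depending on the comparison, so shares of those would be larger. Replicates differed by more than counting noise.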

Additional observations from a re-analysis of the deposited data

Results flagged for a closer look

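Smad2 and Smad7 were each on opposite sides of scramble in the 2 media, counted by same-numbered libraries. Smad2 was higher with H1.0 siRNA in 3 of 3 numbered pairs with vehicle and in 0 of 3 with TGF-β, with a difference between the log2 effects of −0.125 (adjusted p = 0.57 by edgeR's interaction test). Smad7 was higher in 0 of 3 pairs with vehicle and in 3 of 3 with TGF-β, with a difference of 0.311 (adjusted p = 0.62). Neither difference passed the test. The siRNA groups overlapped for Smad2 in TGF-β and for Smad7 in vehicle. How many of all genes switch sides in this way was not counted, so these members cannot be read against a background. Groups of 3 were not searched for single libraries that stand apart.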

How the results depend on the processing

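No called value of the 10 genes changed direction in any alternative. The calls for Pmepa1 and Skil with TGF-β, for Pmepa1 with H1.0 siRNA, and for Smad3 with TGF-β in scramble cells and with H1.0 siRNA in TGF-β were kept throughout. Counts of called members moved as follows. For TGF-β in scramble cells, RLE, filterByExpr, the transcript length offset and protein-coding transcripts alone each left 2 higher, without Tgfbr1, and the last left 1 lower. For TGF-β in H1.0 siRNA cells, DESeq2 and the replicate block each gave 4 higher, with Eng added, and the length offset and protein-coding transcripts each left 1 lower. For H1.0 siRNA in vehicle the length offset left 0 higher. For H1.0 siRNA in TGF-β, DESeq2 and the replicate block each gave 3 lower, and for H1.0 siRNA with TGF-β against scramble with vehicle the replicate block gave 1 lower. The block changed no call beyond those given beside the results. It gave 2777 genes higher and 2348 lower with TGF-β in scramble cells, against 1893 and 1431, and 2551 and 2274 in H1.0 siRNA cells, against 1648 and 1190. The interaction over all genes, 6 higher and 2 lower, came to 110 and 129 with DESeq2, 74 and 44 with the block, 4 and 2 with RLE, 5 and 4 with filterByExpr, 2 and 3 after thinning, 1 and 0 with the length offset and 0 and 0 with protein-coding transcripts alone (edgeR). The cause was not tested.

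Leaving out 1 library at a time, members called higher and lower ranged over 2 to 3 and 1 to 2 for TGF-β in scramble cells, 2 to 3 and 0 to 1 in H1.0 siRNA cells, 0 to 1 and 3 to 4 for H1.0 siRNA in vehicle, 1 to 1 and 1 to 2 in TGF-β, and 2 to 2 and 0 to 1 for both against neither, and the interaction stayed at 0. Each such fit has fewer libraries, and 46 calls in all were lost in them.

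Changes of sign were limited to differences near 0 that were not called. With the length offset these were Tgfbr2 (−0.006) and Smad7 (−0.030) for TGF-β in scramble cells, Smad2 (−0.076) and Smad4 (−0.002) for H1.0 siRNA in vehicle, Smad2 (−0.033) and Smad3 (−0.070) for both against neither, and Tgfbr3 (0.068) and Pmepa1 (−0.021) for the interaction. Smad4 with TGF-β in scramble cells was at 0.009 with DESeq2, 0.008 with RLE and 0.005 after thinning to the lowest total. Smad3 for both against neither was at −0.009 with DESeq2 and RLE, −0.005 with filterByExpr and −0.008 after thinning. The Pmepa1 interaction was at −0.009 with DESeq2 and RLE and −0.004 after thinning. With 1 library left out, sign changes lay within −0.098 to 0.139 for Tgfbr2, −0.026 to 0.020 for Smad4 and −0.132 to 0.187 for Smad7 with TGF-β in scramble cells, −0.013 to 0.044 for Smad2 in H1.0 siRNA cells, −0.281 to 0.037 for Smad7 with H1.0 siRNA in vehicle, −0.096 to 0.192 for Tgfbr1 and −0.068 to 0.111 for Smad3 for both against neither, and −0.462 to 0.322 for Tgfbr3, −0.001 to 0.118 for Skil and −0.091 to 0.086 for Pmepa1 in the interaction.

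With 3 libraries a group and no block, intervals were about ±0.12 on the log2 scale for Smad2 and Smad4 and near ±0.9 for Tgfbr3. With the replicate block the Tgfbr3 difference between siRNAs was 0.70 in vehicle (adjusted p = 0.017) and 0.63 in TGF-β (adjusted p = 0.042), which missed the threshold as well.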
